A study of Bos taurus with 40 samples.

Results

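Granulosa cells, the somatic cells that line the ovarian follicle, were compared by what the oocyte of the same follicle later did in culture. In each of 4 follicles of the blastocyst group (libraries B20, B21, D24 and D27) the oocyte reached the blastocyst stage, and in each of 4 follicles of the cleavage group (B14, B23, D10 and D29) development stopped at cleavage. These 8 libraries are 8 of the 40 samples of the series, all from cattle (Bos taurus). The other samples are cumulus cells, ooplasm biopsies, polar bodies and whole oocytes. Granulosa cells were collected from single follicles, and the cumulus-oocyte complexes were then matured in vitro. The labels call all 8 samples diploid, give no treatment that sets the groups apart, and give neither breed nor age. Nothing states that the follicles came from separate cows, so a p-value here measures only the spread between these libraries. Each library is a bulk sample, in which fewer cells of a type and less RNA per cell cannot be told apart.

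Granulosa cells are coupled to the oocyte through the cumulus cells, which are granulosa cells that surround it, and they supply it with metabolites and signals. They make oestradiol under follicle-stimulating hormone, lay down the basal lamina with the cells outside it, and stop dividing and turn into luteal cells after ovulation. The comparison asks how their RNA differs with the later fate of the oocyte from the same follicle.

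The count table holds 59051 rows, of which 27607 carry an Ensembl identifier without a gene name. The weight lies on the 6413 Ensembl rows with a mean of at least 30 CPM (counts scaled to a library total of 1000000) over the 8 libraries, called the abundant Ensembl rows here. All 6413 passed the filter on low counts. A further 296 rows of that level carry a gene symbol, and the named genes below come from these, except some members of the gene lists at the end, which are given at any level. None of the 26 granulosa marker genes looked for has a row under its symbol, so the labelled cell type could not be checked against its markers. H1FOO was the one oocyte marker of 22 with a row. Genes that share reads with a close copy, such as the histone genes and IGLL1, are uncertain. Counting is not stated to have used strand, so a gene cannot be told apart from an overlapping or antisense one.

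The libraries held 9.88 to 17.7 counts in units of 1000000. The blastocyst libraries spread their counts over more rows: 27546 ± 1170 rows had at least 5 counts, against 19465 ± 1762 in the cleavage libraries (SD, n = 4 each, two-sided exact permutation p = 0.0286, the smallest that 4 against 4 allows). The abundant Ensembl rows took 73.3% ± 9.58 of the counts against 84.5% ± 0.554 (exact permutation p = 0.0286, n = 4), with 60.3% in B20 and 71.8% in D27, against 80.2% in B21 and 80.8% in D24. The 10 most abundant rows took 6.70% ± 3.74 against 12.3% ± 1.42 (exact permutation p = 0.0286, n = 4), and 1.78% in B20.

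Rows of sensory receptors and rows without counts in cumulus cells moved with the groups. The 1024 rows of odorant, taste and vomeronasal receptors, which are genes of sensory cells, summed to 1599 CPM in B20, 259.5 in B21, 266 in D24 and 788 in D27, and to 54.9 to 89.0 CPM in the cleavage libraries. The 7063 Ensembl rows without a count in any cumulus library summed to 18263 CPM in B20, 3597 in B21, 3965 in D24 and 11597 in D27, and to 245 to 1179 CPM in the cleavage libraries. Both sums, here per library total, were highest in B20 and next in D27 and did not overlap between the groups (exact permutation p = 0.0286, n = 4). Reads on such rows in B20 and D27 were known from earlier results of these data. The sum over rows at 0 in cumulus cells was not a planned measure. Both p-values therefore describe the libraries and are no independent support. Without both B20 and D27, the smallest p that 2 against 4 allows is 0.133. These values stand beside every difference below. A fit with the receptor level as a covariate is given further down, but in these 8 libraries that level and the fate group cannot be told apart.

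**Figure D1:**
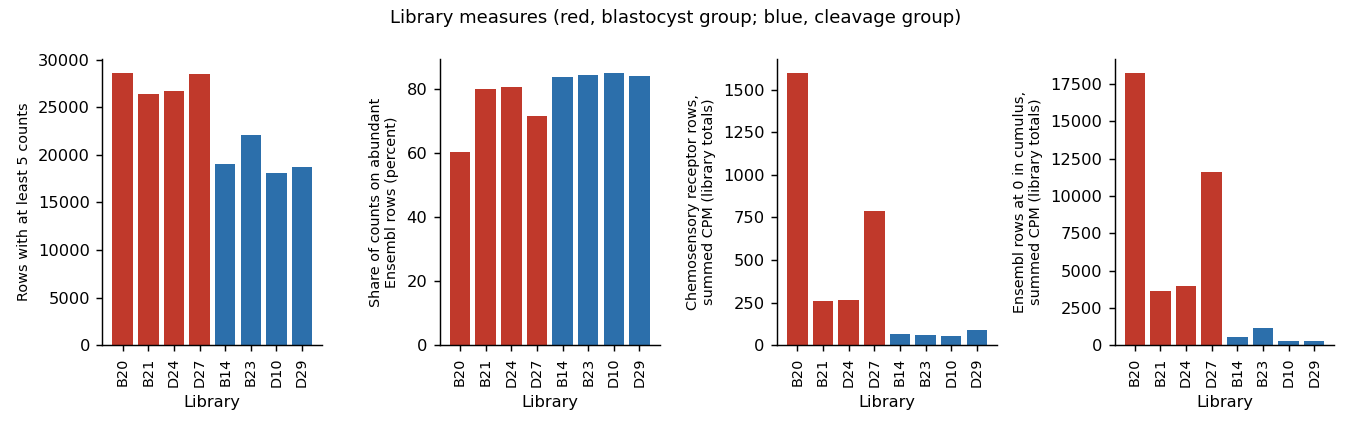
Rows with at least 5 counts, share of counts on the abundant Ensembl rows (percent), and summed CPM of chemosensory receptor rows and of Ensembl rows at 0 in cumulus cells, 1 bar per granulosa library (red, blastocyst group; blue, cleavage group). B20 reaches 1599 CPM and D27 788 CPM on the receptor rows, where the cleavage libraries reach 89.0 CPM at most.

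Of the abundant Ensembl rows, 909 rose in the blastocyst group and 5 fell (edgeR quasi-likelihood test, adjusted p under 0.05). That is 14.2% and 0.0780% of them, against 6821 (29.7%) higher and 8 (0.0349%) lower among all 22934 rows tested, so the share of abundant rows called higher lay below the background. The log2 fold changes of the 909 ran from 1.13 to 7.31, with a median of 4.01. B20 was the highest of the 8 libraries in 903 of them and D27 in 6, and in 896 B20 was first and D27 second. All 4 blastocyst libraries lay above all 4 cleavage libraries in 887 abundant rows (13.8%, against 33.4% of all rows tested) and below them in 204 (3.18%, against 1.72%). Of the 909 called higher, 807 did not overlap between the groups.

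The size of the rise followed the library. Over these 909 rows the median log2 ratio to the cleavage mean, with 1 CPM added, was 5.12 in B20, 3.76 in D27, 1.98 in B21 and 1.94 in D24. The cleavage libraries stood at 0.53 (B23), -0.17 (B14), -0.31 (D29) and -0.61 (D10) on the same scale. The rows were chosen by this contrast, so these medians describe the libraries and support nothing.

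The blastocyst counts of the called rows were split among the 4 libraries in much the same proportions as those of the receptor rows. For the 287 called rows with a mean under 1 CPM in cumulus cells, the median share of the blastocyst-group sum was 63.8% in B20, 6.03% in B21, 5.95% in D24 and 23.9% in D27. The receptor rows, summed on the same scaled CPM in place of the library totals above, gave 62.6%, 6.72%, 6.78% and 23.9% in the same order. For the 107 called rows at 30 CPM or more in cumulus cells, the shares were 57.9% in B20, 10.7% in B21, 7.98% in D24 and 23.5% in D27.

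Many abundant rows owe their mean to the blastocyst libraries. In 1210 of the 6413 the cleavage mean was under 30 CPM, and in 406 the blastocyst mean was. All 345 rows with a cleavage mean under 5 CPM were called higher, which the bound on the mean made nearly unavoidable, so they are no support for a change. Of the 4798 rows with both group means at 30 CPM or more, 111 rose and 4 fell. The median log2 fold change of these 4798 was -0.21, where the median of all abundant rows was -0.09 and that of all rows tested 0.91.

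The calls fell mostly on rows that cumulus cells hardly express. Of 4228 abundant rows with a mean of at least 30 CPM in the 8 cumulus libraries, 107 rose and 2 fell, with a median log2 fold change of -0.29. At 10 to 30 CPM in cumulus cells 193 of 1298 rose and 2 fell (median 0.38), and at 1 to 10 CPM 322 of 574 rose and 1 fell (median 2.34). Under 1 CPM, 287 of 313 rose (median 5.48). The median cleavage mean of these 313 was 3.14 CPM, against a median blastocyst mean of 110 CPM. Many of them thus reached the bound of 30 CPM only through the blastocyst libraries, so their share called is no support for a change. At 1 to 10 CPM in cumulus cells the median cleavage mean was 19.8 CPM, also under the bound. The bound thus favours a rise there too, and with it a higher share called at low cumulus levels. Without B20 and D27 the medians were -0.10, 0.07, 0.98 and 3.47 from the highest cumulus level to the lowest, in the same order. In that fit 87, 121, 271 and 268 rows were higher at an unadjusted p under 0.05, and 78, 33, 8 and 3 lower.

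**Figure D2:**
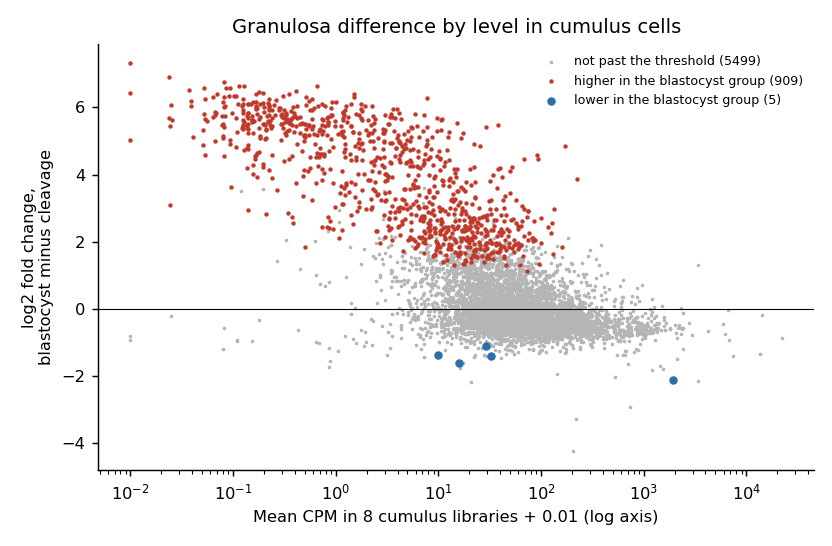
Log2 fold change of each abundant Ensembl row in granulosa cells (blastocyst minus cleavage, y axis) against its mean CPM in the 8 cumulus libraries plus 0.01 (log x axis). Red points are the 909 rows called higher and blue points the 5 called lower. The red points thin out towards high cumulus levels, where 107 of 4228 rows at 30 CPM or more rose. At low cumulus levels the bound of 30 CPM on the granulosa mean favours a rise.

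The most abundant rows held few calls. At a mean of 30 to 50 CPM 415 of 2307 rows rose, at 50 to 100 CPM 373 of 2381, at 100 to 200 CPM 102 of 1105, and at 200 to 500 CPM 19 of 444. At 500 to 1000 CPM edgeR called 0 of 116 rows in either direction, with 0 higher and 2 lower at an unadjusted p under 0.05, and the DESeq2 Wald test called 3 lower. At 1000 CPM or more edgeR called 0 of 60 rows higher and 1 lower, with 4 lower at an unadjusted p under 0.05, and DESeq2 called 5 lower. The median log2 fold change fell from 0.12 at 30 to 50 CPM to -0.64 at 1000 CPM or more. CPM is not corrected for length, so these levels order rows by counts.

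B20 lay lowest in the most abundant rows. Over the 176 rows at 500 CPM or more, the median log2 ratio to the cleavage mean was -2.21 in B20, against -0.24 in B21, -0.43 in D24 and -0.44 in D27. The cleavage libraries ran from -0.32 (D29) to 0.28 (D10).

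**Figure D3:**
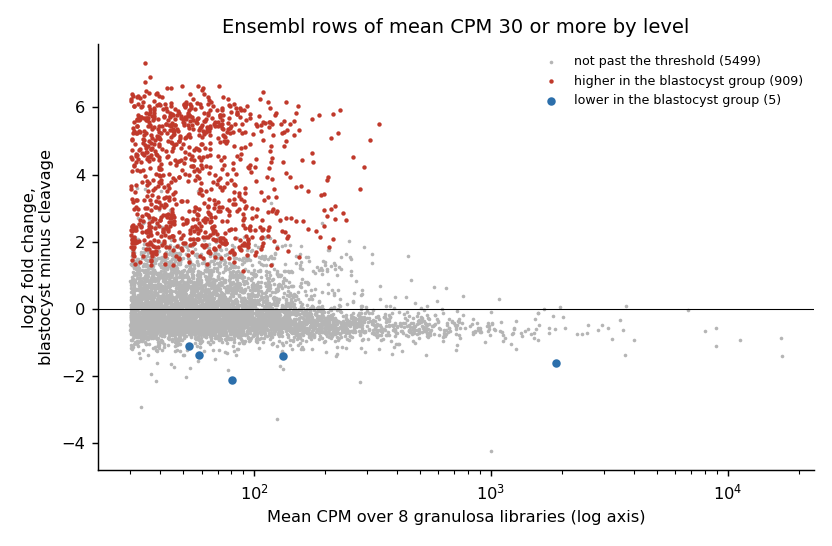
Log2 fold change of each abundant Ensembl row (blastocyst minus cleavage, y axis) against its mean CPM over the 8 granulosa libraries (log x axis). No red point, a row called higher, lies above 500 CPM, and the blue points are the 5 rows called lower.

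Among the 296 abundant rows with a gene symbol, 75 rose (25.3%) and 0 fell by edgeR, with 90 higher and 3 lower at an unadjusted p under 0.05, and DESeq2 called 75 higher and 6 lower. Of all rows tested, edgeR called 29.7% higher and 0.0349% lower, so the named rows lay slightly below the background. The 12 of smallest p with a higher level had cleavage means from 1.42 CPM (OFCC1) to 19.2 CPM (MAGI2). All 12 thus reached the bound of 30 CPM only through a higher blastocyst level. Their rank and functions are therefore no support for a change particular to them. Genes of microtubules and cilia were among these 12. TTLL11, which adds glutamate chains to tubulin, stood at 249 CPM in B20, 24.2 in B21, 30.3 in D24 and 112 in D27, and at 2.03 in B14, 4.54 in B23, 1.19 in D10 and 3.01 in D29. The blastocyst libraries all lay above the cleavage libraries, with B20 and D27 far above B21 and D24 (log2 fold change 5.27, SE 0.89, edgeR adjusted p = 0.0152). EFCAB6, an EF-hand calcium-binding protein, stood at 182 (B20), 45.0 (B21), 39.1 (D24) and 96.8 CPM (D27), against 6.88 (B14), 13.5 (B23), 9.14 (D10) and 9.95 CPM (D29). Its rise was smaller and its blastocyst libraries lay closer together (log2 fold change 3.20, SE 0.56, edgeR adjusted p = 0.0152).

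Secreted and matrix proteins made up another 4 of these 12. LAMA2, a laminin alpha chain of basement membranes, stood at 651 CPM in B20, 73.0 in B21, 61.5 in D24 and 273 in D27, against 5.01 in B14, 14.8 in B23, 2.21 in D10 and 2.28 in D29. The groups did not overlap (log2 fold change 5.45, SE 1.04, edgeR adjusted p = 0.0152). ABI3BP, an extracellular matrix protein, rose by a log2 fold change of 5.61 (SE 1.06) to 148 ± 160 CPM against 3.04 ± 2.84 (SD, n = 4, edgeR adjusted p = 0.0152). HPSE2, a heparan sulphate-binding relative of heparanase, rose by 5.49 and ANOS1, the adhesion protein anosmin, by 4.96 on the log2 scale. In each of them B20 was highest and D27 next, and the SD of the blastocyst group was as large as its mean.

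MAGI2, a scaffold protein of cell junctions and synapses, was likewise highest in B20 and next in D27. It stood at 1174 CPM in B20, 135 in B21, 117 in D24 and 489 in D27, against 19.7 in B14, 32.7 in B23, 10.6 in D10 and 13.9 in D29 (log2 fold change 4.64, SE 0.85, edgeR adjusted p = 0.0152). OFCC1 (log2 6.08), FAM160A1 (4.22), a protein of vesicle trafficking, LEKR1 (4.18), ZNF804A (3.80), a zinc finger protein, and IGLL1 (3.15), an immunoglobulin light-chain-like protein of pre-B cells, completed the set. All 12 lay above the cleavage mean in 4 of 4 blastocyst libraries, which their choice by smallest p fixes. Each kept its call without any 1 library, and none without both B20 and D27, where the smallest edgeR adjusted p of any row was 0.129 and the 12 had log2 fold changes of 1.93 (IGLL1) to 4.11 (OFCC1).

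**Figure D4:**
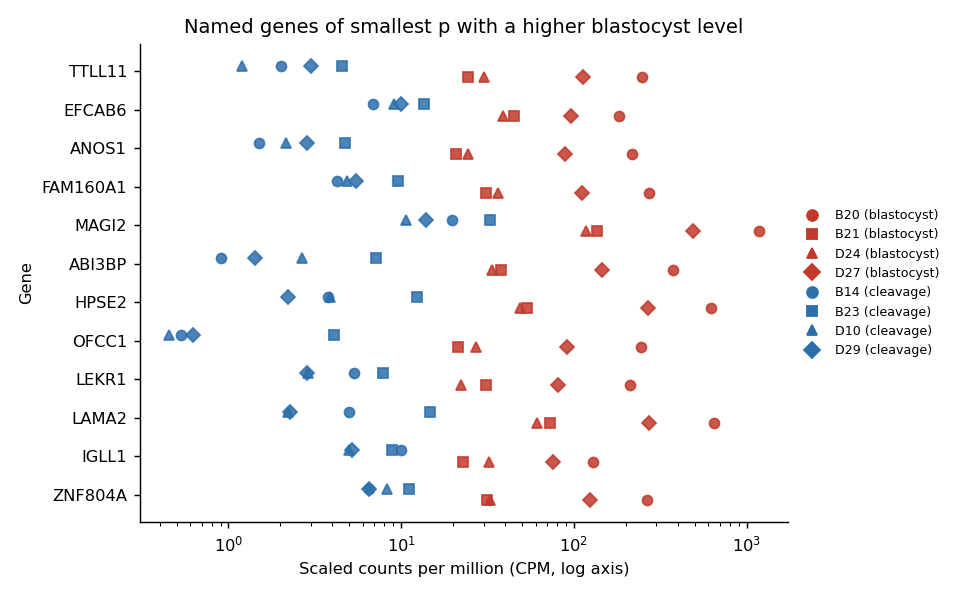
Scaled CPM (log x axis) of the 12 named genes of smallest p among those higher in the blastocyst group, 1 point per library (red, blastocyst; blue, cleavage; shapes mark libraries). Red and blue points do not overlap for any of the 12, and B20 lies farthest right, as for MAGI2 at 1174 CPM. All 12 reached the bound of 30 CPM only through a higher blastocyst level, and their choice by smallest p favours this separation.

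The named genes were also read by function, in groups written after a first fit was known, so that their counts are descriptions. Neuronal adhesion and synaptic proteins rose in 17 of 22 genes, with a median log2 fold change of 4.77 and no value below 0. Among all named rows 25.3% rose, and their median was 0.02. The group's median cleavage mean was 9.83 CPM, and a gene of that level could reach the bound of 30 CPM only through a high blastocyst level. Its median level in cumulus cells was 3.93 CPM, and 56.1% of the abundant Ensembl rows at 1 to 10 CPM there rose. The count is therefore no support for a change particular to this group. CNTNAP2, a neurexin-family adhesion protein, stood at 2509 CPM in B20, 336 in B21, 242 in D24 and 959 in D27, against 65.1 in B14, 72.9 in B23, 64.3 in D10 and 101 in D29. It was also read in cumulus cells, at a mean of 53.3 CPM, and in ooplasm biopsies, at 268 CPM. The groups did not overlap (log2 fold change 3.74, SE 0.76, edgeR adjusted p = 0.0152).

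Several genes of the same group were low in the cleavage libraries and in cumulus cells. NKAIN2, a neuronal protein that interacts with the sodium pump, stood at 1367 CPM in B20, 141 in B21, 109 in D24 and 487 in D27, and at 2.67 in B14, 34.3 in B23, 1.08 in D10 and 0.74 in D29. PCDH9, a protocadherin, stood at 1095 CPM in B20, 123 in B21, 125 in D24 and 536 in D27, against 1.87 in B14, 30.1 in B23, 4.31 in D10 and 10.6 in D29. B23 was the highest cleavage library for both. GABRG3, a GABA receptor subunit, rose to a mean of 385 CPM against 6.76 (log2 5.83), SYN2, a synaptic vesicle protein, to 88.5 against 1.57 (5.82), and LRP1B, a lipoprotein receptor relative, to 113 against 2.44 (5.54).

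The 5 that did not pass were expressed in both groups, SHISA6 excepted. MDGA2, an adhesion protein of the immunoglobulin family, stood at 876 CPM in B20, 220.04 in B21, 385 in D24 and 502 in D27, against 219 in B14, 258 in B23, 290.3 in D10 and 179 in D29 (log2 fold change 1.07, SE 0.45, edgeR adjusted p = 0.10). Here B21 lay within the cleavage range. CHRM3, a muscarinic acetylcholine receptor, had a mean of 184 CPM against 122 (log2 0.59), FAM155A 248 against 111 (1.15) and SYN3 195 against 72.1 (1.43). SHISA6 stood at 23.04 CPM in B23 and at 0.37 CPM or less in the other cleavage libraries, next to 24.7 in B21.

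Cilium and axoneme proteins rose in 7 of 16 genes, where 25.3% of all named rows did, with a median of 1.20 and 5 values below 0. AGBL4, which removes glutamates from tubulin, stood at 1772 CPM in B20, 179 in B21, 151 in D24 and 632 in D27, against 27.8 in B14, 56.6 in B23, 33.1 in D10 and 28.2 in D29 (log2 fold change 4.23, SE 0.85, edgeR adjusted p = 0.0152). CEP112, a centrosomal protein (log2 3.62), IQCA1 (2.67), CFAP47, a cilium protein (2.45), and NEK10, a kinase of ciliated cells (2.33), rose with TTLL11 and EFCAB6. All of the 7 but AGBL4 and CFAP47 had cleavage means under 30 CPM, so they reached that bound only through a higher blastocyst level. DYNC2H1, the motor of retrograde transport in cilia, stood at 177 CPM against 71.1 (1.32), HYDIN, a protein of the axoneme's central apparatus, at 55.8 against 26.3 (1.08), and ARMC4, a dynein-docking protein, at 114 against 147 (-0.37), and these did not pass.

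Of 14 matrix and secreted proteins 8 rose, where 25.3% of all named rows did, and 6 had values below 0. All 14 had to reach a mean of 30 CPM over the 8 libraries, so a gene with a low cleavage level could enter only through a high blastocyst level. The 8 that rose, among them LAMA2 and ABI3BP, had a cleavage mean of at most 8.002 CPM, the value of NELL1, a secreted growth-factor-like glycoprotein. NELL1 stood at 1296 CPM in B20, 137 in B21, 107 in D24 and 460 in D27, against 5.33 in B14, 21.1 in B23, 1.36 in D10 and 4.21 in D29 (log2 fold change 5.97, SE 1.18, edgeR adjusted p = 0.0152). The collagen chains COL19A1 (log2 6.09), COL25A1 (5.10) and COL24A1 (4.66) were the others besides HPSE2 and ANOS1.

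The 6 others had cleavage means from 78.5 to 740.3 CPM, and none passed in edgeR. COL4A4, a type IV collagen chain of basement membranes, stood at 187 CPM in B20, 663 in B21, 313 in D24 and 475 in D27, against 569 in B14, 650.3 in B23, 808 in D10 and 881 in D29 (log2 fold change -0.83, SE 0.43, edgeR adjusted p = 0.19). B21 reached into the cleavage range. COL21A1 stood at 258 against 310.4 CPM (log2 -0.27), and NMB, the peptide neuromedin B, at 448 against 740.3 (-0.73). TIMP1, an inhibitor of matrix metalloproteinases, stood at 0.84 CPM in B20, 15.1 in B21, 6.05 in D24 and 39.3 in D27, against 333 in B14, 6.81 in B23, 44.1 in D10 and 81.3 in D29. Its cleavage libraries spread widely, and B23 lay below D27 and B21 (log2 -2.92, SE 1.25, edgeR adjusted p = 0.109). The DESeq2 Wald test called it lower, as did edgeR without B23 (log2 -3.32), while without B14 its log2 fold change was -1.52.

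The matricellular proteins CTGF and CYR61, which respond to YAP in the Hippo pathway, varied in the same uneven way. CTGF stood at 1.54 CPM in B20, 28.0 in B21, 6.71 in D24 and 40.5 in D27, against 26.5 in B14, 11.02 in B23, 106 in D10 and 170.1 in D29 (log2 fold change -2.03, SE 1.05, edgeR adjusted p = 0.183). CYR61 stood at 3.65 CPM in B20, 136 in B21, 27.9 in D24 and 95.7 in D27, against 63.3 in B14, 65.2 in B23, 123 in D10 and 458 in D29 (log2 -1.43, SE 0.997, edgeR adjusted p = 0.329). For both genes B20 was the lowest library and D29 the highest, and the groups overlapped.

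Housekeeping groups held few calls, where 25.3% of all named rows rose. Their median levels in cumulus cells were 111 CPM (synthetases), 34.7 CPM (histones) and 50.4 CPM (mitochondrial proteins). Of the abundant Ensembl rows at 30 CPM or more there, 2.53% rose, so few calls are not particular to these groups. Of 16 aminoacyl-tRNA synthetases, the enzymes that load tRNAs with amino acids, none was called by edgeR or DESeq2, and 0 had an unadjusted edgeR p under 0.05; their fold changes ran from -0.75 (QARS) to 0.14 (GARS), with a median of -0.17. None of the 16 histones and nucleosome-binding proteins was called by either tool or reached an unadjusted edgeR p under 0.05 (median -0.14). H3F3B, a replication-independent histone, stood at 1631 CPM against 1895 (log2 -0.22), and H2AFZ, a variant histone, at 940.3 against 1003 (-0.09). Of 10 mitochondrial proteins 0 were called by either tool and 1 was higher at an unadjusted edgeR p under 0.05 (median -0.29). That one was CLYBL, an enzyme of citramalate breakdown, at 83.9 against 23.4 CPM (log2 1.84). The 3 medians stood beside 0.02 for all named rows and -0.09 for the abundant Ensembl rows and stayed negative under each of the other scalings and in DESeq2, but those of the histones (0.24) and mitochondrial proteins (0.05) were positive without both B20 and D27.

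In 3 further groups 1 member rose beside relatives that did not pass, where 25.3% of all named rows rose. CELF2, an RNA-binding splicing factor, was the 1 of 13 RNA-binding and RNA-processing proteins that rose, at 211 CPM in B20, 15.1 in B21, 19.5 in D24 and 59.7 in D27, against 0.69 in B14, 4.41 in B23, 0.68 in D10 and 0.57 in D29 (log2 5.59, SE 1.16, edgeR adjusted p = 0.0152). The median of the 13 was -0.51, and PNISR stood at 145 against 255 CPM (-0.82). CELF2 had a cleavage mean of 1.59 CPM, so only a high blastocyst level could bring it to the bound of 30 CPM. Its contrast with relatives expressed in both groups is therefore no support for a change. SEPT9 was the 1 of 6 septins, filament-forming GTPases, that rose: it stood at 100.2 CPM in B20, 41.0 in B21, 45.7 in D24 and 82.9 in D27, against 27.4 in B14, 27.2 in B23, 16.9 in D10 and 14.9 in D29 (log2 1.64, SE 0.42, edgeR adjusted p = 0.0205). SEPT9 was also read in cumulus cells, at 132 CPM. Its cleavage mean was 21.6 CPM, so it too reached the bound of 30 CPM only through a higher blastocyst level. Its contrast with the other septins is therefore no support for a change.

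MARCH3 was the 1 of 5 MARCH ubiquitin ligases that rose, to 69.0 ± 81.7 CPM against 7.26 ± 4.55 (SD, n = 4, log2 3.25, edgeR adjusted p = 0.0310). Like CELF2, it could reach the bound of 30 CPM only through its blastocyst level. Of 20 zinc finger genes of the ZNF series, ZNF804A, ZNF469 (log2 4.58), ZNF407 (2.45) and ZNF154 (1.60) rose, where 25.3% of all named rows did. Leaving out 1 library moved this count from 4 to 1, without B20 as without D27, and TMM over all rows to 2. These 4 had cleavage means of 2.76 to 21.4 CPM, so they too reached the bound only through a higher blastocyst level. The medians of the zinc finger genes (0.12) and septins (0.01) turned negative under each of the other scalings, and that of the MARCH ligases was -0.01. The call of SEPT9 was lost without D27, D10 or D29, where its log2 fold change stayed within 1.33 to 1.82 over the 8 omissions, and that of MARCH3 without B20, D27, D10 or D29 (1.93 to 3.58). Both calls were also lost with TMM over all rows.

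Named genes that cumulus cells express at 30 CPM or more and that rose here were 7: SEPT9, CNTNAP2, ANK2, NOS1AP, MKL1, SSFA2 and KIAA0556, chosen for mention after their values were seen. Of the abundant Ensembl rows at that cumulus level 107 of 4228 (2.53%) rose, and of all rows tested 29.7%. No share of the named rows at that level is given, so the 7 are examples only. All but CNTNAP2 had cleavage means under 30 CPM, from 9.12 (NOS1AP) to 26.7 CPM (MKL1). They reached the bound only through a higher blastocyst level. ANK2, an ankyrin that anchors membrane proteins, stood at 540.1 CPM in B20, 61.3 in B21, 42.3 in D24 and 200.3 in D27, against 7.52 in B14, 17.2 in B23, 6.53 in D10 and 8.59 in D29 (log2 4.40, SE 0.86, edgeR adjusted p = 0.0152). MKL1, a coactivator of serum response factor that responds to actin, stood at 325 CPM in B20, 57.6 in B21, 32.9 in D24 and 129 in D27, against 38.1 in B14, 25.5 in B23, 12.2 in D10 and 30.8 in D29. Its D24 value lay within the cleavage range (log2 2.35, SE 0.71, edgeR adjusted p = 0.0346). The calls of MKL1 and SSFA2 (log2 2.21) were lost on leaving out any library but B21 or D24, and that of KIAA0556 (1.86) on leaving out any but B21, D24 or B23. With TMM over all rows all 3 calls were lost. Without B20, MKL1 had a log2 fold change of 1.38 and SSFA2 of 1.03.

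The 12 named genes of smallest p with a lower level in the blastocyst group all missed the threshold, and 11 of them are described. All 4 blastocyst libraries lay below all 4 cleavage libraries in 3.18% of abundant Ensembl rows and 1.72% of all rows tested. Choice by smallest p favours such a separation, which is therefore no support for a fall. XIST, the noncoding RNA that silences an X chromosome in female cells, stood at 194 CPM in B20, 965 in B21, 492 in D24 and 780.4 in D27, against 1058 to 1167 CPM in the 4 cleavage libraries. The groups did not overlap, though B21 lay close to the cleavage range (log2 fold change -0.88, SE 0.48, edgeR adjusted p = 0.21). SNURF, which shares a transcript with SNRPN at an imprinted locus, stood at 47.7 CPM in B20, 93.4 in B21, 87.7 in D24 and 94.4 in D27, against 116 to 139 CPM (log2 -0.69, SE 0.32, edgeR adjusted p = 0.135). FAM208A, which belongs to the HUSH complex that silences retroelements, stood at 85.3 CPM in B20, 167 in B21, 116 in D24 and 109 in D27, against 180.1 to 204 CPM (log2 -0.68, SE 0.31, edgeR adjusted p = 0.13).

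Genes of transcription and splicing were among the 12 too. TAF7, a subunit of the general factor TFIID, stood at 33.4 CPM in B20, 124 in B21, 130.4 in D24 and 96.2 in D27, against 148 to 268 CPM (log2 -0.998). U2SURP, a protein of the spliceosome, stood at 129 ± 43.9 against 211 ± 21.4 CPM (SD, n = 4, log2 -0.71), and CCDC84, a spliceosome factor, at 107 ± 61.3 against 209 ± 30.2 CPM (SD, n = 4, log2 -0.96). B20 was the lowest library for each of these 3 genes. The groups did not overlap in any of them, which their choice by smallest p favours.

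HEXDC, a hexosaminidase, came closest to the threshold. It stood at 14.3 CPM in B20, 47.8 in B21, 21.7 in D24 and 21.5 in D27, against 46.4 in B14, 54.0 in B23, 57.2 in D10 and 74.9 in D29, with B21 just above the lowest cleavage library (log2 -1.14, SE 0.43, edgeR adjusted p = 0.0701). It passed without B21 (log2 -1.60), with DESeq2 size factors and in the DESeq2 Wald test. C11H9orf16 stood at 16.6 ± 10.8 against 46.4 ± 28.5 CPM (SD, n = 4, log2 -1.48, edgeR adjusted p = 0.117). It was called lower by DESeq2, as were SNURF and FAM208A.

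**Figure D5:**
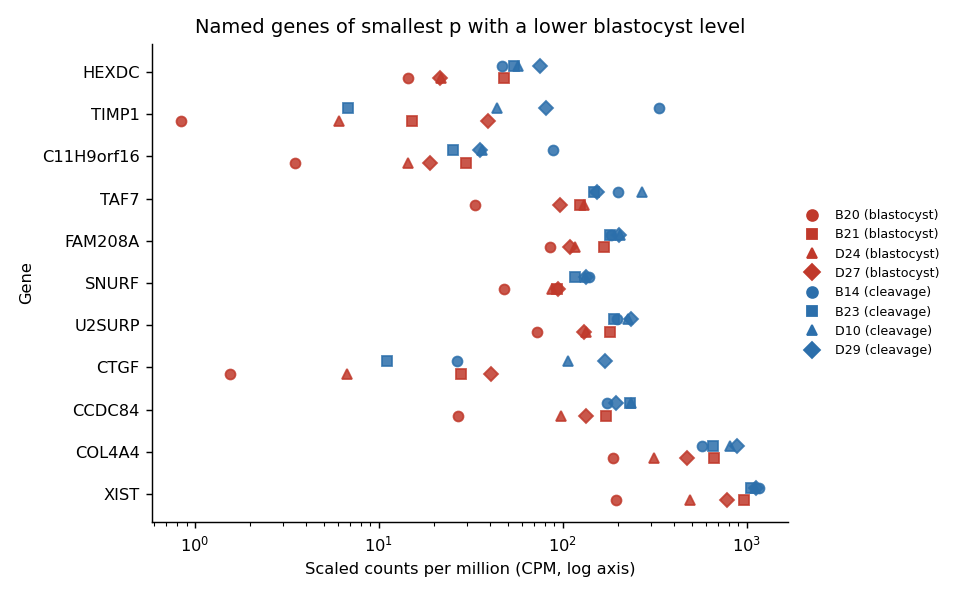
Scaled CPM (log x axis) of 11 of the 12 named genes of smallest p among those lower in the blastocyst group, 1 point per library (red, blastocyst; blue, cleavage; shapes mark libraries). None passed the threshold in edgeR; B20 is the lowest library throughout, and XIST runs from 194 CPM in B20 to 1167 CPM in B14.

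The 5 abundant Ensembl rows that fell have no gene name. ENSBTAG00000010498 stood at 24 CPM in B20, 39.8 in B21, 37.7 in D24 and 24.4 in D27, against 69.5 in B14, 48.6 in B23, 113 in D10 and 93.3 in D29. The groups did not overlap, and B20 did not stand apart here (log2 fold change -1.36, SE 0.37, edgeR adjusted p = 0.0246). ENSBTAG00000043574 stood at 67.7 CPM in B20, 115 in B21, 41.9 in D24 and 54.6 in D27, against 108 in B14, 169 in B23, 172 in D10 and 290 in D29, where B21 lay above B14 (log2 -1.41, SE 0.43, edgeR adjusted p = 0.0371). The first lost its call without D27, D10 or D29, and the second without any library but B21 or B14.

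Another 2 of the 5 did not overlap between the groups, which their call as lower favours. Of all abundant Ensembl rows 3.18% lay this way, and of all rows tested 1.72%. Of these 2, 1 was among the most abundant rows of the table. That row stood at 316 CPM in B20, 1341 in B21, 588 in D24 and 1300 in D27, against 3765 in B14, 2728 in B23, 2251 in D10 and 2101 in D29 (log2 -1.61, SE 0.52, edgeR adjusted p = 0.0436). The largest fall in size of any abundant row did not pass and rested on 1 library: it stood at 6763 CPM in B14, 84.0 to 200.1 in the other cleavage libraries and 46.2 to 181 in the blastocyst libraries (log2 -4.23, SE 1.495, edgeR adjusted p = 0.0590). Among the rows that rose, ENSBTAG00000017839 stood at 179.9 CPM in B20, 20.02 in B21, 22.3 in D24 and 73.2 in D27, against 0.40 to 2.07 CPM (log2 6.05, SE 0.94, edgeR adjusted p = 0.0152). ENSBTAG00000014581 rose to 115 ± 126 CPM against 2.03 ± 1.11 (SD, n = 4, log2 5.83, edgeR adjusted p = 0.0152).

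Of 24 gene lists with 698 symbols, 7 lists had a row in the fit, with 1 to 4 genes each. In the list of the basal lamina and follicle matrix, LAMA2 and LAMA5 rose, and COL4A4 and TIMP1 did not pass. LAMA5, a laminin alpha chain, stood at 27.1 CPM in B20, 9.38 in B21, 9.82 in D24 and 24.6 in D27, against 3.31 in B14, 5.21 in B23, 2.38 in D10 and 5.12 in D29 (log2 2.14, SE 0.59, edgeR adjusted p = 0.0256). Cumulus cells had more of it, at 99.3 CPM. Its call was lost without B20, D27, B14, D10 or D29, over which omissions its log2 fold change stayed at 1.79 or more, and with TMM over all rows.

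H1FOO, the linker histone of oocytes, rose in its list of oocyte markers. It stood at 47.4 CPM in B20, 8.86 in B21, 5.27 in D24 and 20.6 in D27, against 0.37 in B14, 4.94 in B23, 0.23 in D10 and 0.46 in D29, and at a mean of 1042 CPM in the ooplasm biopsies and 0.014 CPM in cumulus cells. D24 lay just above B23 (log2 3.77, SE 1.20, edgeR adjusted p = 0.0409). Its call was lost without B20, D27, B14, D10 or D29, and under TMM over all rows or DESeq2 size factors. The part of oocyte RNA in the differences of other genes was not tested.

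The other lists held no call by edgeR or DESeq2 and no gene at an unadjusted edgeR p under 0.05. For insulin signalling, IRS1, an insulin receptor substrate, stood at 107 CPM in B20, 74.7 in B21, 54.8 in D24 and 135 in D27, against 68.9 to 103 CPM (log2 0.12, SE 0.36), a sign that turned under each of the other scalings and without B20, D27 or D29. Its relative IRS2 stood at 15.1 ± 6.86 against 7.33 ± 3.60 CPM (SD, n = 4, log2 1.05). The immediate early gene IER5 stood at 43.7 ± 28.2 against 40.5 ± 22.8 CPM (SD, n = 4, log2 0.11, negative with TMM over all rows or DESeq2 size factors). RPL31, a ribosomal protein, stood at 373 ± 149.5 against 590 ± 229 CPM (log2 -0.66), and SNRNP70, a protein of the spliceosome, at 13.02 ± 4.81 against 17.3 ± 6.75 CPM (log2 -0.41; SD, n = 4). The Hippo list held CTGF and CYR61.

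The calls were lost without both B20 and D27, while the fold changes of the called rows stayed positive. The edgeR count was then 0, and 4460 rows were higher and 202 lower at an unadjusted p under 0.05, among them 747 and 122 abundant Ensembl rows. All 909 abundant rows called higher with 8 libraries had a positive log2 fold change there too, with a median of 2.13, in a comparison of 2 libraries against 4 that shares its libraries with the full one. The 909 were chosen as higher in that full comparison, which favours a positive sign, so the sign is no independent support. Without B20 alone edgeR called 3594 rows higher and without D27 alone 3719, against 6821 with both, and 635 and 606 of the abundant Ensembl rows. With the summed receptor level as a covariate no row was called either: 1763 had an unadjusted p under 0.05, and the smallest edgeR adjusted p was 0.639. In these 8 libraries the fate group and the receptor level cannot be told apart.

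The first principal component of the abundant Ensembl rows carried 77.6% of the variance and ordered the libraries as the receptor level did at its upper end. Its scores were 143 in B20, 69.8 in D27, 14.2 in B21 and 9.30 in D24, and ran from -34.0 (B23) to -78.1 (D10) in the cleavage libraries. Over the 4228 abundant rows at 30 CPM or more in cumulus cells, log levels of B20 correlated with those of the other 7 libraries at 0.218 to 0.657, and those 7 with each other at 0.728 to 0.921. These correlations are across rows, which are not independent replicates, and share library depth.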

How the data were processed

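RNA of 8 granulosa libraries was compared, with 8 cumulus and 8 biopsy libraries used for levels only. The authors deposited whole-number counts per row, used here as deposited. The submitters' processing notes name featureCounts, STAR, cutadapt and Trim Galore. The genome build, like the versions and settings, is not given in the sources used here. A RefSeq gene table of ARS-UCD2.0 was used for names only and gave 1105 LOC rows a current symbol.

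Rows were filtered with filterByExpr and tested in R 4.3.3 with the robust quasi-likelihood F test of edgeR 4.0.16, calling a Benjamini-Hochberg adjusted p under 0.05 over 22934 rows. Libraries were scaled by TMM factors from the abundant Ensembl rows. CPM are scaled by these factors, except the 30 CPM bound, the levels in cumulus cells and biopsies and the summed receptor and cumulus-zero levels, which use library totals. Over all rows the log2 fold changes had a median of 0.91 with this scaling, 0.10 with TMM over all rows, 0.48 by size factors of DESeq2 and 0.69 by totals alone, and over the abundant Ensembl rows of -0.09, -0.70, -0.45 and -0.21. DESeq2 1.42.0 (Wald test with default settings, on all rows with a count, without filterByExpr) was the other tool. Depth was 9.88 to 17.7 counts per library in units of 1000000. The edgeR fit was tried on simulated counts.

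Named genes are the 12 symbol rows of 30 CPM or more with the smallest p in each direction, up to 4 members of each of 24 gene lists at any tested level, and 2 unnamed identifiers in each direction. Of these, 1 gene is not reported here. A further 15 genes were added after their values were seen. The members, lists and rules were chosen with earlier results of these data known. Errors are SD over 4 libraries.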

Additional observations from a re-analysis of the deposited data

Results flagged for a closer look

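Of 112 groups of 4 libraries screened, 8 held a library far from the other 3, where chance gives about 1 in 20. In the cleavage group B23 stood far above the others for HPSE2 (12.3 scaled CPM), OFCC1 (4.07), H1FOO (4.94), COL25A1 (18.4) and CELF2 (4.41), all genes that rose in the blastocyst group. B23 also had the highest sum of the cleavage libraries over Ensembl rows at 0 in cumulus cells, 1179 CPM, and the part of this in those values was not tested. B14 stood far above the others for C11H9orf16 (88.6) and D29 for CYR61 (458). In the blastocyst group B20 stood far below the others for SNURF, at 47.7 against 87.7 to 94.4 scaled CPM.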

How the results depend on the processing

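No paired analysis was possible because the fate groups share no library label; the label letters B and D, whose meaning is not given, occur in both groups, and with the letter as a covariate 6932 rows were called higher and 8 lower, 888 and 4 of them abundant Ensembl rows, and SSFA2 and ENSBTAG00000043574 lost their calls. Per-library differences (blastocyst minus cleavage), on leaving out 1 library, ran from 7615 to 8939 detected rows, -13.7 to -6.84 percentage points for the abundant Ensembl rows, -6.70 to -3.96 for the 10 most abundant rows, 372 to 818 CPM for receptor rows and 5818 to 10706 CPM for rows at 0 in cumulus cells, and were 7076, -3.94, -2.70, 197 and 3213 without both B20 and D27; the smallest exact permutation p of these sets is 0.0571 and 0.133. On leaving out 1 library, 3594 (without B20) to 8561 (without B23) rows were called higher and 2 (without D10) to 56 (without B21) lower, and 606 (without D27) to 1224 (without D24) abundant Ensembl rows higher and 1 (without D10 or D29) to 31 (without B21) lower; 3719 rows were higher without D27. Without both, and with the receptor level as covariate, 0 were called. Rows called lower, and abundant Ensembl rows called lower, were 80 and 38 with TMM over all rows, 42 and 24 with DESeq2 size factors, 14 and 9 without a filter, 59 and 30 at adjusted p under 0.10, and 372 and 155 by DESeq2, which called 11059 rows of 35243 higher; 13 rows fell with library totals. With the abundant rows alone in the fit, which gives no value for all rows, 1 fell. At a bound of 10 CPM 2239 Ensembl rows rose; at 100 CPM 121 rose and 2 fell.

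Over 51 named rows, 763 of 922 alternative values kept direction and side of the threshold, and 34 changed sign. Of those that kept their sign, 116 lost the call and 9 gained it. Some that changed sign lost their call as well, such as CNTNAP2 with the receptor covariate. The cause was not tested. With the receptor covariate the signs turned for ZNF804A (-0.16), C11H9orf16 (0.54), TAF7 (0.84), FAM208A (0.051), SNURF (0.037), U2SURP (0.26), CCDC84 (0.82), COL4A4 (0.19), XIST (0.51), IRS1 (-0.86), RPL31 (0.70), CNTNAP2 (-0.39), MKL1 (-1.38), SSFA2 (-1.87), KIAA0556 (-0.86), ANK2 (-0.023), NOS1AP (-0.60), AGBL4 (-0.23), MARCH3 (-1.60) and RYR3 (-0.76). IER5 was -0.54 with TMM over all rows, -0.26 with DESeq2 size factors, -0.27 in DESeq2, -0.10 without both and -0.41 to 0.56 on leaving out 1 library. IRS1 was -0.65, -0.30, -0.31, -0.39 and -0.12 to 0.30 in the same order, and -0.065 with library totals. Depth limits rows near 0 in the cleavage group, whose fold changes are imprecise.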
